A study of Mus musculus with 5 samples.

Results

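The interferon response genes described here are a named list of 39 mouse genes that interferons and viral RNA are known to switch on: sensors of viral RNA, transcription factors, IFIT proteins, the ISG15 system, antiviral effectors, guanylate-binding proteins, PARP proteins and genes of antigen processing. The list gives its genes by name, with no threshold on their values, and was drawn up when earlier results of these data were known. A probe paired with exactly 1 gene symbol was found for 36 of the 39, out of 22180 such genes on the array, and the probe of highest mean stood for a gene with more than 1. Gbp2 and Dtx3l had only probes that carry several symbols, Ifi44 had no probe, and no value is given for these 3 genes. Of the 36, 33 reached a log2 value of 4.78, the median of all deposited values, on at least 1 array, and Mx1, Mx2 and Gbp6 were below it on every array. Counts of members are given over all 36.

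Expression was measured on 5 Affymetrix arrays, 1 for each condition. The Day0 array held alveolar epithelial type II (AEC-II) cells, the surfactant-producing cells of the lung alveolus, freshly isolated from mouse lungs and sorted as CD45neg CD31neg EpCAMpos cells. The mice carried R26-rtTA and Col1a1::tetO-4F2A, so that doxycycline (Dox) switches on the reprogramming factors Oct4, Sox2, Klf4 and Myc (OSKM). The lung cells of all 4 lung cell arrays had both transgenes. The paper also used such mice with an added Oct4-GFP reporter, and whether the arrays came from these is not stated. The 2WND array held cells after a Dox-free culture of 2 weeks in epithelial medium, in Matrigel above mouse embryonic fibroblast feeders. The 2WND+2W+D array held such cells after passage and 2 weeks with Dox in embryonic stem cell medium, so Dox and medium changed together. The 2WND+2W+D+2W-D array followed after 2 further weeks without Dox, in a medium that the methods do not name. The iPS array held induced pluripotent stem cells whose origin is not given. Equal amounts of RNA from separate samples were used for a group. Whether these were combined on 1 array, and whether feeder cells were removed first, is not stated.

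Interferons are signalling proteins that cells release on infection. They bind surface receptors, whose Janus kinases activate a transcription factor complex, ISGF3, that contains STAT2 and IRF9. It binds the interferon-stimulated response element (ISRE) in the promoters of interferon-stimulated genes. Promoters that answer to interferon gamma often hold another element, the gamma-activated sequence (GAS). Inside the cell, RIG-I and MDA5 recognise viral RNA and start interferon production through IRF3 and IRF7. Many interferon-stimulated genes have some expression without any infection, and pluripotent stem cells are known for a weak response to interferon.

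No condition had a second array, so no test could be made and no p-value is given. A gene was counted as higher or lower when its log2 values differed by at least 1, that is 2-fold, among the 15436 genes that reached 4.78 on at least 1 array. The robust spread of all these genes (a scaled median absolute deviation of their differences) was smallest between 2WND+2W+D+2W-D and 2WND, at 0.23 on the log2 scale, and that value holds array error together with any difference between these cells. In the other comparisons it was 0.50 to 1.03. The arrays had medians of 4.71 to 4.83. A fold with 1 side below 4.78 was counted from 4.78 and is written as "at least".

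The labels were set against marker genes. The median of 10 AEC-II markers was 12.71 on Day0, 10.93 on 2WND, 10.27 on 2WND+2W+D, 10.82 on 2WND+2W+D+2W-D and 5.29 on iPS. The median of 10 pluripotency markers was 9.74 on iPS and between 4.12 and 4.37 on the lung cell arrays. Markers of other cell types were also read. Of 10 macrophage markers, 5 reached 4.78 on Day0, 9 on 2WND, 8 on 2WND+2W+D, 9 on 2WND+2W+D+2W-D and 7 on iPS, and their summed linear signal was 626, 12615, 1615, 10045 and 1746 in that order. Their medians were 4.89, 9.62, 6.82, 9.46 and 4.98, and the iPS sum was led by a single gene, Cd68, at 10.52. The 10 fibroblast markers summed to 694, 16469, 27989, 19900 and 8398 in the same order, with 7 reaching 4.78 on Day0 and 10 on each other array. The 6 endothelial markers summed to 1178, 146, 215, 168 and 574 in that order of arrays, with 5 of them reaching 4.78 on Day0 and on iPS and 2 on each other array. On iPS the fibroblast sum was led by Fn1, at 12.23 where the list median was 8.55. The endothelial sum there was led by Pecam1, at 8.47 where the list median was 5.79. On Day0, sorted as CD31neg, Cdh5 had 9.18, Cldn5 8.01 and Pecam1, which encodes CD31, 6.85. The 9 leukocyte markers summed to 1490, 4998, 1505, 3845 and 573 in the same order of arrays. Their Day0 sum was led by Lcp1, at 10.28 where the list median was 4.96. Ptprc, which encodes CD45, had 4.19 on Day0 and 7.54 on 2WND. Of 7 lymphocyte markers, only Nkg7 reached 4.78 on any array. In such bulk samples, a gene made by fewer cells and a gene made at a lower level per cell cannot be told apart.

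Over the lung cell arrays the 36 genes did not move as a block. In 2WND, after 2 weeks of culture, 4 of the 36 members were at least 2-fold higher than in Day0 (Ifitm3, Ifit2, Ifit1 and Dhx58) and 2 were at least 2-fold lower (Usp18 and Psmb8), which is 11.1% and 5.56% of the members. Of all genes compared, 8.94% were higher and 5.21% lower. In 2WND+2W+D, none of the 36 was at least 2-fold higher than in 2WND and 3 were lower (Psmb9, Cmpk2 and Ifit1), or 8.33%, where all genes gave 6.9% higher and 7.56% lower. Ifit2, Ifih1 and Parp14 lay just short of 2-fold lower in this comparison, and Ifit2 and Parp14 passed it with quantile normalized arrays, and all 3 with aligned medians. In 2WND+2W+D+2W-D, 2 members were higher than in 2WND+2W+D (Cmpk2 and Psmb9) and 2 were lower (Isg15 and Oasl1), or 5.56% each way, against 8.08% and 6.17% of all genes. With quantile normalization or aligned medians the split was 2 higher and 1 lower, without Oasl1. The shares of members in these 3 comparisons lay within a few points of those of all genes, except that no member was higher with Dox.

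After the whole Dox cycle no member differed by 2-fold from the culture before it. Between 2WND+2W+D+2W-D and 2WND, 0.888% of all genes were higher and 0.415% lower, so that less than 1 member in either direction would match the background. The median difference of the 36 genes was -0.15, against 0.00 for all genes compared, and 25 of the 36 were below zero. No test of this shift was possible. The largest member differences were -0.60 for Oasl2, -0.58 for Ifit2, -0.57 for both Ifit1 and Oas2, and 0.83 for Gbp6, whose values are all below 4.78.

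The iPS array stood apart from the lung cells. In iPS, 11 of the 36 members lay 2-fold or more below 2WND and none was higher, which is 30.6% of the members where 17.8% of all genes were lower and 15.6% higher. Against Day0, 12 members were lower in iPS (33.3%) and 2, Ifitm3 and Bst2, were higher, where 17.1% of all genes were lower and 19.3% higher. The median member difference was -0.61 for iPS minus 2WND and -0.19 for iPS minus Day0, against -0.06 and 0.00 for all genes compared. These 2 comparisons share the iPS array. Of the 36 members, 18 had their lowest value of the 5 arrays on iPS and 4 their highest, where 33.3% of all genes were lowest there and likewise 33.3% highest. Day0 held the highest value of 15 members, against 24.5% of all genes. Of the lung cell arrays it also had the highest endothelial marker sum and the highest AEC-II marker median. The part of endothelial or AEC-II RNA in these values was not tested. The median level of the 36 genes was 6.91 on Day0, 6.47 on 2WND, 6.34 on 2WND+2W+D, 6.43 on 2WND+2W+D+2W-D and 5.58 on iPS. The AEC-II marker median ranked the 5 arrays in the same order, from 12.71 on Day0 to 5.29 on iPS. Its part in the member values was not tested.

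**Figure D1:**
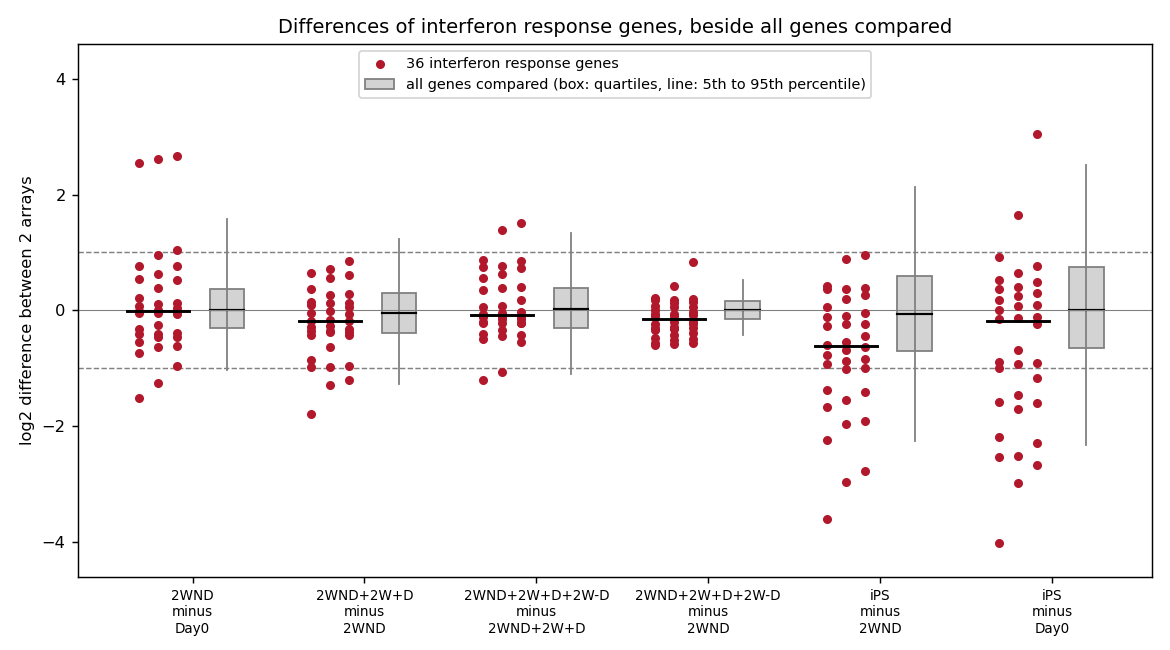
Log2 differences of the 36 interferon response genes (red points, black line at their median) beside all 15436 genes compared (box from quartile to quartile, line from the 5th to the 95th percentile), for the 6 pairs of arrays; dashed lines mark 2-fold. The members lie around zero in the comparisons of lung cells, closest for 2WND+2W+D+2W-D minus 2WND, and reach lowest for iPS, where the medians are -0.61 against 2WND and -0.19 against Day0.

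The members also differed among themselves. Over the 4 lung cell arrays, 15 of the 36 spanned at least 2-fold between highest and lowest value, where 31.7% of all genes did, and the median span of the members was 0.84 against 0.68 for all genes compared. Ifitm3, Ifit2, Ifit1, Psmb9 and Isg15 had the widest spans. The other 21 members stayed within 2-fold over these arrays.

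**Figure D2:**
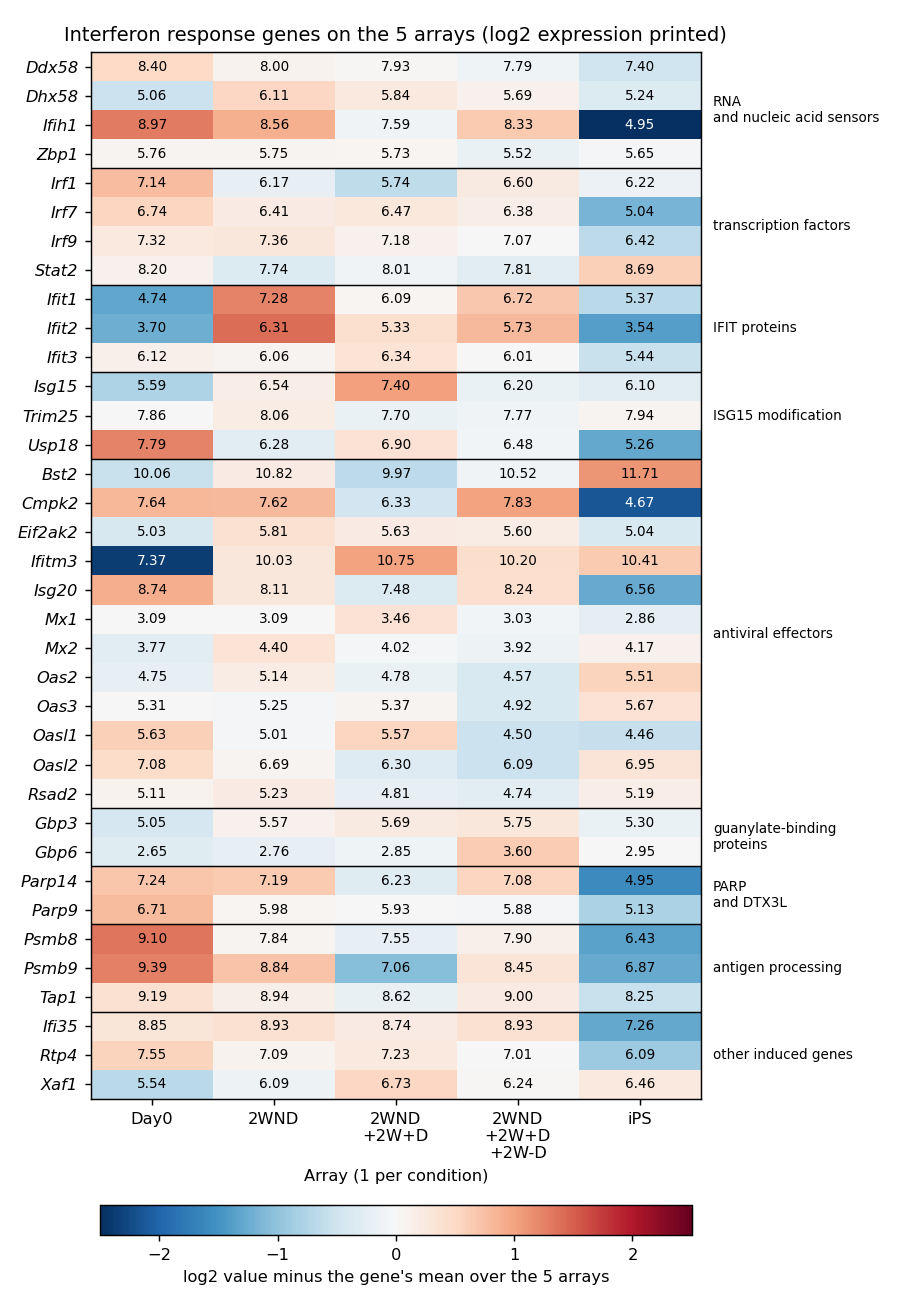
Deposited log2 values (printed numbers) of the 36 interferon response genes, in rows by role, on the 5 arrays in columns; the color is the value minus that gene's mean over the 5 arrays. Ifih1, Cmpk2, Parp14, Psmb8 and Ifit2 are bluest on iPS, Ifitm3 is bluest on Day0, and rows such as Zbp1, Trim25 and Irf9 are pale throughout.

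The RNA sensors were led by Ifih1, which encodes MDA5, the sensor of long double-stranded RNA. Its log2 values were 8.97 on Day0, 8.56 on 2WND, 7.59 on 2WND+2W+D, 8.33 on 2WND+2W+D+2W-D and 4.95 on iPS. The iPS value was 12.2-fold below that of 2WND and 16.2-fold below that of Day0, the widest difference of any member. With Dox it was -0.97 from 2WND, just short of 2-fold. Ddx58, which encodes RIG-I, the sensor of short RNA with a triphosphate end, had 8.40, 8.0, 7.93, 7.79 and 7.4 in the same order of arrays. It declined in small steps, and its -1.0 for iPS minus Day0 was just under the threshold before rounding. Dhx58 encodes LGP2, which tunes the activity of the other two. It had 5.06, 6.11, 5.84, 5.69 and 5.24, and was 2.07-fold higher in 2WND than in Day0. Zbp1, a sensor of Z-form nucleic acids that can trigger necroptosis, lay between 5.52 and 5.76 on all 5 arrays.

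Of the transcription factors, Irf7, the factor that drives most interferon alpha genes, held between 6.38 and 6.74 on the 4 lung cell arrays and was 5.04 on iPS. That is 2.59-fold lower than 2WND and 3.25-fold lower than Day0. Irf1, which interferon gamma induces and which drives antigen-presentation genes, had 7.14 on Day0, 6.17 on 2WND, 5.74 on 2WND+2W+D, 6.60 on 2WND+2W+D+2W-D and 6.22 on iPS. Its difference of -0.97 between 2WND and Day0 lay just inside 2-fold, and quantile normalization moved it past. The partners in ISGF3 took opposite sides on iPS. Irf9 had 7.32, 7.36, 7.18, 7.07 and 6.42, and Stat2 had 8.20, 7.74, 8.01, 7.81 and 8.69, so Irf9 was lowest and Stat2 highest on iPS. Neither difference from 2WND reached 2-fold (-0.93 for Irf9 and 0.95 for Stat2).

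The IFIT proteins bind foreign RNA and block its translation, and their 3 genes here did not share a profile. Ifit1 had 4.74 on Day0, 7.28 on 2WND, 6.09 on 2WND+2W+D, 6.72 on 2WND+2W+D+2W-D and 5.37 on iPS. Ifit2 had 3.70, 6.31, 5.33, 5.73 and 3.54 in the same order. Both were low on Day0, highest on 2WND and intermediate in the later cultures. In 2WND, Ifit1 was at least 5.66-fold and Ifit2 at least 2.89-fold higher than in Day0. With Dox, Ifit1 was 2.29-fold lower than in 2WND, and Ifit2 differed by -0.98. In iPS, Ifit1 was 3.75-fold and Ifit2 at least 2.89-fold lower than in 2WND. Ifit3, which directly follows Ifit2 on chromosome 19 in the RefSeq order of genes, had 6.12, 6.06, 6.34, 6.01 and 5.44. Its difference between 2WND and Day0 was -0.05, where that of its neighbour Ifit2 was 2.62. The macrophage and fibroblast marker sums given above were also higher in 2WND than in Day0, and their part in the values of Ifit1 and Ifit2 was not tested.

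Promoter sequence was read for Ifit1 and Ifit3 because both carry ISRE cores while only Ifit1 was higher in culture. The windows come from RefSeq on build GRCm38.p6 and run from 250 bases before to 50 after an annotated start. The ISRE core searched was GAAANNGAAA on both strands (its reverse complement is TTTCNNTTTC). Below are the stretches just before each start, 5′ to 3′ on the gene's strand, with the cores in capitals, at chr19:34640769-34640888 (plus strand) for Ifit1 and chr19:34583359-34583528 (plus strand) for Ifit3.
Ifit1: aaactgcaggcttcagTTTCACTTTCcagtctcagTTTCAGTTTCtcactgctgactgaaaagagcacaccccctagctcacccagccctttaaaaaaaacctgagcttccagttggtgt
Ifit3: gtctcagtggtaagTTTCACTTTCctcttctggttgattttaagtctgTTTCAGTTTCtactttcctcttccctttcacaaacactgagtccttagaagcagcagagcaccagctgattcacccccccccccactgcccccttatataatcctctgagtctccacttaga
The cores of Ifit1 begin 104 and 85 bases before its start and those of Ifit3 begin 156 and 122 bases before. In both genes the upstream core reads the same, and so does the downstream one. No ISRE core was in the 2 windows of Ifit2, whose values followed those of Ifit1.

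Over the list, 29 of the 39 genes had a window, and 13 of these 29 held an ISRE core, where 3.99% of the 27025 genes with a window did (3.44% of 32851 windows). The 13 were Bst2, Ddx58, Eif2ak2, Gbp2, Gbp3, Ifih1, Ifit1, Ifit3, Ifitm3, Isg15, Oas3, Rsad2 and Stat2. The GAS core, TTCNNNGAA, which is its own reverse complement, was in 8 of the 29, where 9.55% of all genes with a window held it. Those 8 were Bst2, Eif2ak2, Ifi35, Ifit2, Ifitm3, Irf1, Isg20 and Psmb8. Genes with and without an ISRE core lay on both sides of the iPS comparison. Of the 11 members at least 2-fold lower in iPS than in 2WND, 9 had a window and 2 of these held an ISRE core, Ifih1 and Ifit1. Of the other 25 measured members, 17 had a window and 10 held one. These groups were formed after the values were known, and a match to such short letters is a description of the window and not a binding site.

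**Figure D3:**
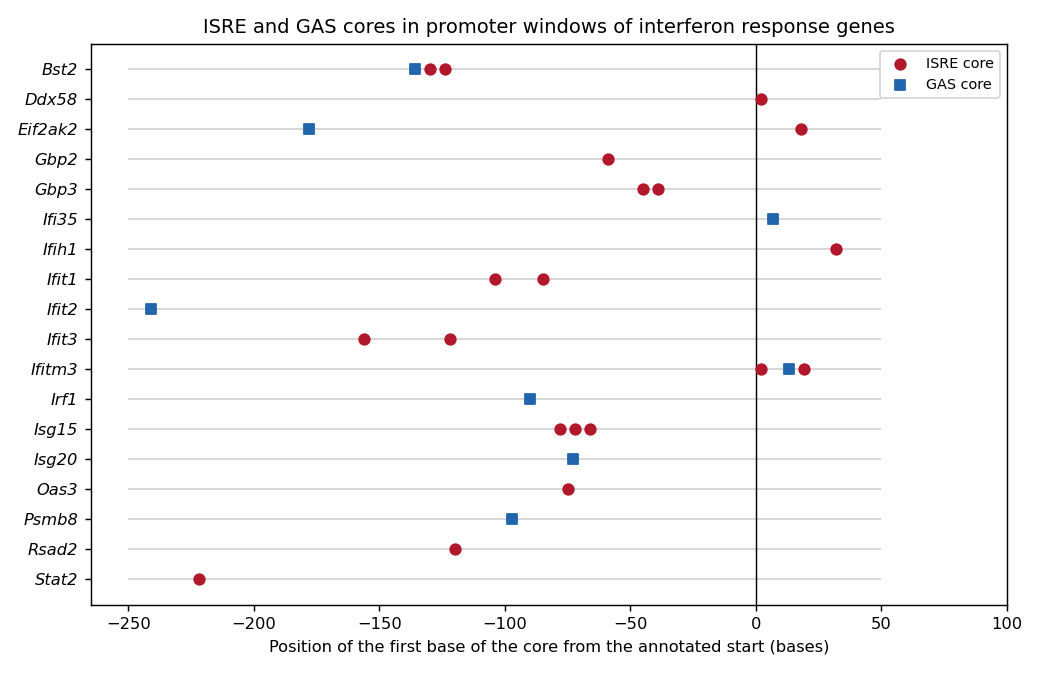
Positions of ISRE cores (red circles) and GAS cores (blue squares) in the promoter windows of the listed genes that hold any, as bases from the annotated start on the gene's strand. Most ISRE cores lie before the start, as in Isg15 with 3 at 78, 72 and 66 bases before it, and those of Ddx58, Eif2ak2, Ifih1 and Ifitm3 lie after it.

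The ISG15 genes went different ways. Isg15 encodes a ubiquitin-like modifier that is joined to other proteins during the interferon response. Its values were 5.59 on Day0, 6.54 on 2WND, 7.40 on 2WND+2W+D, 6.20 on 2WND+2W+D+2W-D and 6.10 on iPS. It was highest with Dox, and 2WND+2W+D+2W-D was 2.30-fold lower than 2WND+2W+D. The difference between 2WND and Day0 was 0.95, which passed 2-fold with aligned medians. Usp18 encodes the protease that removes ISG15 and also damps the type I receptor. It had 7.79, 6.28, 6.90, 6.48 and 5.26 in the same order, 2.84-fold lower in 2WND than in Day0 and 2.03-fold lower in iPS than in 2WND. Isg15 was thus lowest and Usp18 highest on Day0. Trim25, a ubiquitin ligase that activates RIG-I, stayed between 7.70 and 8.06 on all 5 arrays. The promoter of Isg15 is shown for its run of 3 overlapping ISRE cores in capitals, at chr4:156200819-156200908 (minus strand), up to the base before its start.
Isg15: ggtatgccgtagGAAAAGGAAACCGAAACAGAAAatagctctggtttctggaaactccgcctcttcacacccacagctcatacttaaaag

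The antiviral effectors held the widest positive difference of the list and some of the widest negative ones. Ifitm3, a membrane protein that stops viruses from entering the cytoplasm, had 7.37 on Day0, 10.03 on 2WND, 10.75 on 2WND+2W+D, 10.20 on 2WND+2W+D+2W-D and 10.41 on iPS. Day0 stood alone: 2WND was 6.34-fold and iPS 8.27-fold higher than Day0, while the other 4 arrays lay within 0.72 of one another. The fibroblast marker sum was likewise lowest on Day0, and its part in the Ifitm3 values was not tested. Cmpk2, a nucleotide kinase of mitochondria that is induced by interferon, had 7.64, 7.62, 6.33, 7.83 and 4.67. It was 2.46-fold lower in 2WND+2W+D than in 2WND, 2.83-fold higher in 2WND+2W+D+2W-D than in 2WND+2W+D, and at least 7.16-fold lower in iPS than in 2WND. Rsad2 encodes viperin, which makes a chain-terminating nucleotide from CTP, and the 2 genes are direct neighbours on chromosome 12. Rsad2 had 5.11, 5.23, 4.81, 4.74 and 5.19, with no 2-fold difference in any comparison. Its difference with Dox was -0.43 where that of Cmpk2 was -1.30, and its iPS minus 2WND difference was -0.05 where that of Cmpk2 was -2.96.

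Isg20, an exonuclease that degrades viral RNA, had 8.74 on Day0, 8.11 on 2WND, 7.48 on 2WND+2W+D, 8.24 on 2WND+2W+D+2W-D and 6.56 on iPS, and iPS was 2.94-fold lower than 2WND and 4.53-fold lower than Day0. Bst2 encodes tetherin, which holds budding viruses at the cell surface. It had 10.06, 10.82, 9.97, 10.52 and 11.71 in the same order, highest on iPS, which was 3.13-fold above Day0 and 0.88 above 2WND on the log2 scale. Bst2 is also a marker of plasmacytoid dendritic cells. Of the 6 other markers listed for that cell, Siglech lay between 4.49 and 5.14 and Ccr9 below 4.78 on all 5 arrays. Tcf4 (7.14 to 9.13 over the arrays) was higher on iPS than on Day0, 7.52 against 7.14. Ly6d (5.25 against 7.35) and Cox6a2 (4.57 against 7.84) were lower on iPS than on Day0. Klk1 was 8.06 on iPS and between 2.36 and 2.86 on the lung cell arrays. The part of such cells in the Bst2 values was not tested. The promoter of Bst2 is shown as that of a member higher in iPS, at chr8:71537473-71537612 (minus strand), up to the base before its start. The run in capitals joins a GAS core to 2 overlapping ISRE cores.
Bst2: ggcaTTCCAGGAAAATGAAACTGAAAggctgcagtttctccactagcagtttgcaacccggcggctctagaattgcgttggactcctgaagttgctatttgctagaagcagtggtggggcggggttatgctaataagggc

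The oligoadenylate synthetases, which make the activator of RNase L, and their relatives differed little between arrays. Oas2 had 4.75, 5.14, 4.78, 4.57 and 5.51 and Oas3 had 5.31, 5.25, 5.37, 4.92 and 5.67, both highest on iPS and lowest on 2WND+2W+D+2W-D. Oasl2 had 7.08, 6.69, 6.30, 6.09 and 6.95 and did not differ by 2-fold in any comparison. Its neighbour Oasl1, which restrains translation of Irf7, had 5.63, 5.01, 5.57, 4.50 and 4.46. It was at least 1.73-fold lower in 2WND+2W+D+2W-D than in 2WND+2W+D and at least 1.79-fold lower in iPS than in Day0, with the lower values in both below 4.78. Eif2ak2 encodes PKR, the kinase that halts translation on double-stranded RNA. It ran from 5.03 on Day0 and 5.04 on iPS to 5.81 on 2WND. The GTPases Mx1, at 2.86 to 3.46, and Mx2, at 3.77 to 4.40, were below 4.78 on all 5 arrays. Among these effectors only Oasl1 passed 2-fold in any comparison.

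Few differences were seen in the guanylate-binding proteins, GTPases that attack membranes of intracellular pathogens. Gbp3 lay between 5.05 and 5.75, lowest on Day0 and highest on 2WND+2W+D+2W-D, and Gbp6 between 2.65 and 3.60. The PARP genes were lower in iPS. Parp14, a mono-ADP-ribosyltransferase, had 7.24 on Day0, 7.19 on 2WND, 6.23 on 2WND+2W+D, 7.08 on 2WND+2W+D+2W-D and 4.95 on iPS. The iPS value was 4.70-fold below 2WND and 4.88-fold below Day0. Parp9, which works with the ubiquitin ligase Dtx3l, had 6.71, 5.98, 5.93, 5.88 and 5.13 and was 3.0-fold lower in iPS than in Day0. A single gene lies between them on chromosome 16. With Dox their differences from 2WND were -0.95 for Parp14 and -0.04 for Parp9.

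Antigen processing genes were highest on Day0 and lowest on iPS, all 3 of them. Psmb8 and Psmb9 encode immunoproteasome subunits, which cut proteins into peptides for MHC class I, and Tap1 encodes a subunit of the pump that carries these peptides into the endoplasmic reticulum. Psmb9 had 9.39 on Day0, 8.84 on 2WND, 7.06 on 2WND+2W+D, 8.45 on 2WND+2W+D+2W-D and 6.87 on iPS. The value with Dox stood near that of iPS: it was 3.45-fold lower than 2WND, and 2WND+2W+D+2W-D was 2.62-fold higher than it. Psmb8 had 9.10, 7.84, 7.55, 7.90 and 6.43 in the same order, 2.40-fold lower in 2WND than in Day0 and 2.66-fold lower in iPS than in 2WND. Tap1 had 9.19, 8.94, 8.62, 9.0 and 8.25 and no 2-fold difference. Psmb9, Tap1 and Psmb8 follow one another on chromosome 17 without another gene between. With Dox the differences from 2WND were -1.79 for Psmb9, -0.33 for Tap1 and -0.29 for Psmb8.

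Psmb9 and Tap1 face away from each other, and the 225 bases between their annotated starts are shown because these starts share them while the arrays gave the 2 genes different profiles. They lie at chr17:34187331-34187555 and are written on the strand of Tap1 (plus), with neither core matched and hence no capitals.
Psmb9 to Tap1: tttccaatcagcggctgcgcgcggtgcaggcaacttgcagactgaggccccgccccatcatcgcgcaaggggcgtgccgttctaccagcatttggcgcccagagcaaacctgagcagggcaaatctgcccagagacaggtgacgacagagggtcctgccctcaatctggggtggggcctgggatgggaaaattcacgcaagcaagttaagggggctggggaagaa

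**Figure D4:**
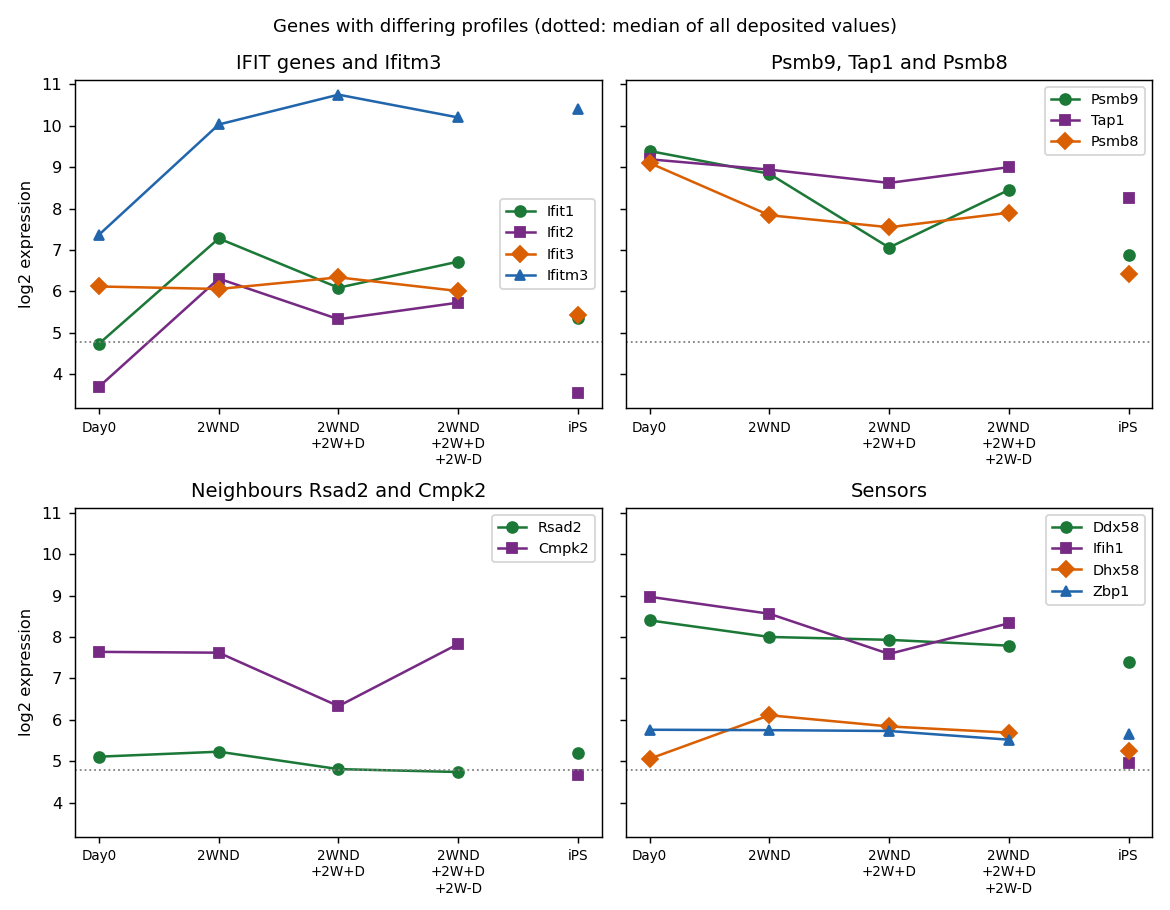
Log2 values of IFIT genes and Ifitm3, of Psmb9, Tap1 and Psmb8, of Rsad2 and Cmpk2, and of the sensors on the 5 arrays; lines join the lung cell arrays in order of culture, iPS stands apart, and the dotted line is the median of all values, 4.78. Ifit1 and Ifit2 are higher on 2WND than on Day0 while Ifit3 is level, and Psmb9 and Cmpk2 are lowest of the lung cell arrays on 2WND+2W+D while their neighbours Tap1 and Rsad2 vary less.

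Psmb9, Cmpk2, Parp14 and Ifih1 had their lowest lung cell value on 2WND+2W+D and a higher one on 2WND+2W+D+2W-D. So did Isg20, Irf1, Bst2, Psmb8, Tap1, Trim25 and Ifi35. The macrophage marker sum took the same course, 1615 on 2WND+2W+D against 12615 on 2WND, and then 10045 on 2WND+2W+D+2W-D. The AEC-II marker median was likewise lowest of the lung cell arrays on 2WND+2W+D, at 10.27, against 10.93 on 2WND and 10.82 on 2WND+2W+D+2W-D. The fibroblast marker sum went the other way, 27989 on 2WND+2W+D against 16469 on 2WND and 19900 on 2WND+2W+D+2W-D. On Day0 the macrophage sum was 626, the fibroblast sum 694 and the AEC-II median 12.71. Psmb9, Parp14 and Ifih1 had their highest value of the 5 arrays on Day0, and Cmpk2 its second highest. The part of macrophage or AEC-II RNA in the values of these genes was not tested. Dox and embryonic stem cell medium cannot be told apart in this step.

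The remaining induced genes had their widest differences on iPS. Ifi35, a regulator of innate signalling, held between 8.74 and 8.93 on the 4 lung cell arrays and was 7.26 on iPS, 3.18-fold lower than 2WND. Rtp4, a chaperone that interferon induces, had 7.55, 7.09, 7.23, 7.01 and 6.09, with iPS 2.75-fold lower than Day0. Xaf1, which binds the apoptosis inhibitor XIAP, went the other way, with 5.54 on Day0, 6.09 on 2WND, 6.73 on 2WND+2W+D, 6.24 on 2WND+2W+D+2W-D and 6.46 on iPS, and its differences stayed under 2-fold in each comparison.

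A stricter comparison set iPS against each lung cell array at once. In iPS, 7 of the 36 genes were at least 2-fold below every lung cell array: Irf7, Usp18, Ifih1, Ifi35, Parp14, Cmpk2 and Psmb8. That is 19.4% of the members, where 6.9% of all genes compared were. No member was at least 2-fold above every lung cell array, where 10.3% of all genes were. Stat2, Oas2, Oas3 and Bst2, by contrast, had their highest value on iPS, and Trim25 and Zbp1 stayed level. In the same iPS RNA, all 10 fibroblast markers and 7 of 10 macrophage markers reached 4.78. Of these macrophage markers, Cd68 stood at 10.52 and the others lay near 4.78, between 4.87 and 5.44. The part of such cells in the iPS values was not tested.

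**Figure D5:**
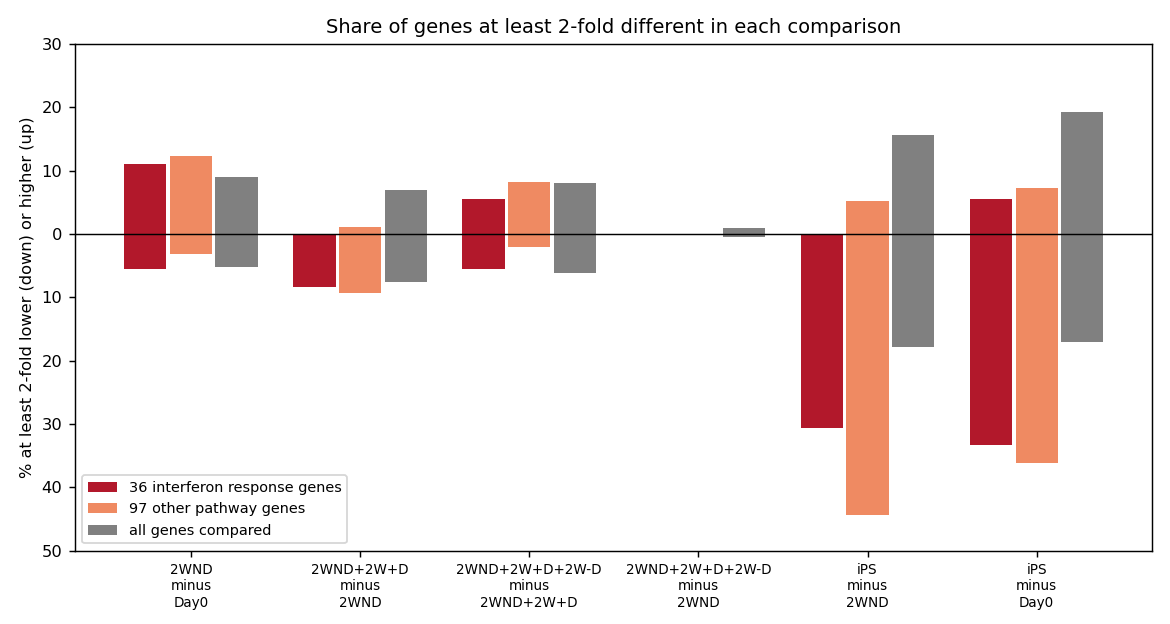
Percent of genes at least 2-fold higher (bars up) or lower (bars down) in each of the 6 comparisons, for the 36 interferon response genes (dark red), 97 other genes of the pathway (orange) and all 15436 genes compared (grey). For iPS minus 2WND, 30.6% of the interferon response genes and 44.3% of the other pathway genes are lower, against 17.8% of all genes; for 2WND+2W+D minus 2WND, none of the members and 1.03% of the other pathway genes are higher, against 6.9% of all genes.

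The rest of the pathway was measured through 97 other genes in 7 lists. Of these, 84 reached 4.78 on at least 1 array and could be counted as higher or lower, and shares are given over all 97. In iPS, 43 of the 97 (44.3%) were at least 2-fold lower than in 2WND and 5 (5.15%) were higher, where 17.8% of all genes were lower and 15.6% higher. With dim values counted from 4.78 the counts were 39 and 3. Against Day0, 35 of the 97 (36.1%) were lower in iPS and 7 (7.22%) higher, or 33 and 3 counted from 4.78. Of all genes, 17.1% were lower and 19.3% higher in iPS than in Day0. The macrophage marker sum was 12615 on 2WND and 626 on Day0, and its part in these counts was not tested. In iPS, 25 of the 97 (25.8%) were at least 2-fold below every lung cell array, where 6.9% of all genes were. Between 2WND+2W+D+2W-D and 2WND none of the 97 differed by 2-fold in either direction. Of all genes, only 0.888% were higher and 0.415% lower there, so a count of none lies near the background. With Dox, 9 (9.28%) were lower than in 2WND, near the 7.56% of all genes, and 1, Oas1g, was higher, at least 1.62-fold with its 2WND value below 4.78. In 2WND, 12 (12.4%) were higher than in Day0 and 3 (3.09%) lower, where 8.94% of all genes were higher and 5.21% lower. In 2WND+2W+D+2W-D, 8 (8.25%) were higher than in 2WND+2W+D and 2 (2.06%) lower, where 8.08% of all genes were higher and 6.17% lower. The plot of shares sets these counts beside those of the 36 members.

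The interferon genes themselves gave no 2-fold difference between any compared pair of arrays. Ifnb1, which encodes interferon beta, lay between 2.93 and 3.18 and Ifng, which encodes interferon gamma, between 4.45 and 4.76, all below 4.78. Ifna1 (6.41 to 6.93), Ifna4, Ifnl2 and Ifnl3 reached 4.78 on every array, but these belong to families of near-identical genes, so their probes may read relatives. Of 6 receptor genes, 4 (66.7%) were at least 2-fold lower in iPS than in 2WND, or 3 when dim values are counted from 4.78. None was higher, where 17.8% of all genes were lower and 15.6% higher. Against Day0, 3 receptor genes (50%) were lower in iPS, or 2 counted from 4.78, where 17.1% of all genes were lower. Il10rb, shared by the receptors of interferon lambda and interleukin 10, had 10.72, 10.60, 9.72, 10.70 and 6.97, 12.4-fold lower in iPS than in 2WND. Ifngr1 (7.17 on iPS and 9.51 on 2WND) and Ifngr2 were also lower in iPS, as was Ifnlr1, by at least 1.29-fold with its iPS value below 4.78. The type I receptor genes stayed within 2-fold: iPS minus 2WND was -0.58 for Ifnar1 and -0.53 for Ifnar2. Of the 4 kinases and STATs measured, 2 (50%) were lower in iPS, beside the same 17.8% of all genes. These were Stat3 (9.46 in iPS, 10.83 in 2WND) and Jak2 (6.82 in iPS, 8.05 in 2WND), and Jak1 and Tyk2 were within 2-fold.

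Upstream of interferon, 9 of 16 adaptors, kinases and sensors (56.2%) were lower in iPS than in 2WND, or 8 with dim values counted from 4.78. None of the 16 was higher, where 17.8% of all genes were lower and 15.6% higher. Against Day0, 6 of the 16 (37.5%) were lower in iPS, where 17.1% of all genes were. Tlr3, the endosomal receptor for double-stranded RNA, had 8.99 on Day0, 9.22 on 2WND, 8.44 on 2WND+2W+D, 8.93 on 2WND+2W+D+2W-D and 5.00 on iPS, 18.7-fold lower in iPS than in 2WND. As with the cytoplasmic sensor Ifih1, its lowest lung cell value was with Dox. Sting1, the adaptor of DNA sensing, had 8.69, 8.04, 8.73, 8.02 and 5.99. Tlr7, a receptor for single-stranded RNA in myeloid cells, had 3.42, 7.82, 4.35, 8.39 and 4.12, high on the 2 arrays where the macrophage sum was highest. Of 13 MHC class I genes, 6 (46.2%) were lower in iPS than in 2WND, beside the same 17.8% of all genes. Against Day0, 7 of the 13 (53.8%) were lower, beside 17.1% of all genes. H2-K1, a classical class I heavy chain, had 11.13, 10.44, 9.14, 10.20 and 7.33, again lowest with Dox among the lung cells as Psmb9 was, and iPS was 8.61-fold below 2WND. Among 8 negative regulators, Irf2 was lower in iPS (5.64 against 8.52 in 2WND) and Trim24 higher (9.05 against 7.19 in 2WND). Of 41 other induced genes, 21 (51.2%) were lower and 4 (9.76%) higher in iPS than in 2WND, or 19 and 2 with dim values counted from 4.78. Against Day0, 15 (36.6%) were lower and 6 (14.6%) higher in iPS, or 14 and 2 counted from 4.78. Of all genes, 17.1% were lower and 19.3% higher against Day0. Ifi204 and Ifi205, of a family that includes DNA sensors, were higher in 2WND than in Day0 (6.80 against 2.80, and 7.87 against 4.37), as the macrophage markers were. On 2WND+2W+D, where the macrophage sum was 1615 against 12615 on 2WND, Ifi204 had 6.57 and Ifi205 5.53. The part of macrophage RNA in these values was not tested.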

How the data were processed

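Affymetrix Mouse Gene 2.0 ST arrays of 5 conditions, 1 array each, were analysed. The authors used Affymetrix Expression Console and deposited a log2 value for each of 41345 probes. The version, summarization, normalization and build are not given in the sources used here, and the number of arrays limits the precision. The log base was read from the values, which reach 13.58. Values were used as deposited. Probes were named by the platform annotation, and all 36 member identifiers carry the same symbol in RefSeq (GRCm38.p6), used for names and gene order. Differences were taken for 6 pairs of arrays. The members and pathway lists were chosen with earlier results of these data known. Within a role, the 2 members of widest range and any that went against its role were given. Most have a value for every array, and some, such as Irf7, Ifi35, Gbp3 and Gbp6, have a range over several arrays. Pathway genes are up to 4 of widest range a list and those a statement turns on. The calculation was tested on simulated data. Alternatives were quantile normalization, aligned medians, averaged probes, dim values raised to 4.78, no filter, a filter at the 75th percentile and a 4-fold threshold. Python 3.11.15, numpy 2.4.6, pandas 2.3.3 and matplotlib 3.10.9 were used.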

Additional observations from a re-analysis of the deposited data

How the results depend on the processing

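Member counts each way, in 6 comparisons, gave 84 values under 7 alternatives, of which 14 moved by more than 1.5 times. Of 24 recomputed median differences, 3 changed sign. The median for 2WND minus Day0 was 0.05 with aligned medians, against -0.01 as deposited. For 2WND+2W+D+2W-D minus 2WND+2W+D it was 0.00 with quantile normalization and 0.02 with aligned medians, against -0.08 as deposited. Aligning the medians moved the median of all genes in this comparison to 0.14, against 0.03 as deposited. For both comparisons the median of the members therefore has no settled direction. With a 4-fold threshold in place of 2-fold, the count of lower members was 0 for 2WND minus Day0 and 0 for 2WND+2W+D minus 2WND, both counts were 0 for 2WND+2W+D+2W-D minus 2WND+2W+D, 4 members were lower for iPS minus 2WND, and 1 was higher and 7 lower for iPS minus Day0. With the filter at the 75th percentile, 2 members were higher for 2WND minus Day0, where Ifit2 and Dhx58 fell below the filter. For 2WND+2W+D minus 2WND, 5 were lower with quantile normalization and 6 with aligned medians, as Ifit2 and Parp14, and then also Ifih1, passed 2-fold. For 2WND+2W+D+2W-D minus 2WND+2W+D, 1 was lower with quantile normalization, aligned medians, dim values raised or the 75th percentile filter, in each of which Oasl1 was not counted. Leaving out a replicate could not be run, since each condition had 1 array. No paired analysis was possible because no condition has more than 1 array. Array error is not known by itself, since the comparison of 2WND+2W+D+2W-D with 2WND holds it together with any difference between these cells. How far a single gene stood above background is unknown.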
